A study of Mus musculus with 6 samples.

Results

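Lipid-associated macrophages are phagocytes loaded with lipid from dying cells or fat tissue, and 9 genes that mark them were followed here across tumours: the receptor Trem2, its adaptor Tyrobp, Gpnmb, Spp1, Fabp5, Cd9, Cd63, Lgals3 and Lipa. They were taken by symbol from the deposited table, which held all 9 among its 17352 genes, and all 9 were above the filter on low values that left 12257 genes to test. RNA came from 6 whole tumours, formed by Panc02 cells (a line from a mouse pancreatic tumour) injected subcutaneously and removed 4 weeks after implantation. The hosts of 3 tumours were Anxa1ΔMɸ mice, lacking annexin A1 in myeloid cells (called deficient, tumours 3, 4 and 5), and those of the other 3 were Anxa1flox/flox mice, labelled wild type, that carry the floxed gene (tumours 2, 3 and 5). Every label also carries the letters HFD, which are not defined there, and the labels name neither the driver of the deletion nor the age or sex of the mice. The study's title concerns annexin A1, the uptake of dying cells (efferocytosis) by tumour macrophages and the cGAS/STING pathway, and the comparison asks how these 9 genes differed when the host's myeloid cells lacked annexin A1.

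TREM2 is a surface receptor of macrophages and microglia for lipids and lipoproteins. It has no signalling tail of its own and signals through TYROBP (DAP12), whose immunoreceptor tyrosine-based activation motif recruits the kinase SYK. A macrophage that engulfs dying cells takes up much cholesterol and fatty acid, which lysosomal enzymes release, binding proteins carry and transporters export. In mouse obesity and in the mouse brain, TREM2 is needed for macrophages or microglia to take on this lipid-handling state, and cells with like transcripts are found in tumours.

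Values are FPKM (fragments scaled to gene length and library depth), so levels can be set side by side between genes. Whole numbers of fragments could be recovered from the FPKM values, and they summed to 36282109 to 39650881 per library. Each of the 9 genes rested on at least 1279 fragments in every library (Fabp5 in wild type 2 had the fewest), so counting error was at most 2.80% and below the spread between tumours of at least 1 group for each gene. Anxa1, the deleted gene, was at 249.9 (tumour 3), 330.2 (tumour 4) and 290.5 FPKM (tumour 5) in deficient hosts, against 341.8 (tumour 2), 354.4 (tumour 3) and 394.2 FPKM (tumour 5) in wild-type hosts. Anxa1 lay lower in every deficient tumour but did not pass the test (log2 fold change -0.33, limma adjusted p = 0.268); whole tumours also hold Anxa1 RNA of cells in which it was not deleted. The tumours are labelled as pancreatic cancer cells. The 10 tumour epithelial markers summed to 473 to 622 FPKM in deficient and 465 to 564 FPKM in wild-type tumours. Krt8 and Krt18 made up most of these sums. Of the 10 markers, 5 had every deficient tumour above every wild-type tumour, a pattern seen in 11.8% of tested genes. For 1 it was the reverse, seen in 8.31% of tested genes. Among the 5, Cldn4 was at 0 FPKM in every wild-type tumour and Muc1 reached at most 0.749 FPKM in any tumour. The 14 general macrophage markers summed to 4250.3 to 7246 FPKM in deficient and 4169 to 4631 FPKM in wild-type tumours. The Y-linked Ddx3y was at 0 to 0.126 FPKM in deficient and 3.13 to 6.79 FPKM in wild-type tumours. The sex of the hosts, which the labels do not give, may therefore differ between the groups. The part of such a difference in the results below cannot be told apart from the genotype. The labels do not say whether the tumours of a group came from separate litters or cages, and p-values measure the spread between these 6 tumours.

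None of the 9 genes differed between deficient and wild-type tumours past the threshold, a limma adjusted p under 0.05 over all tested genes, at which 0.979% of the 12257 genes were called higher and 0.228% lower. At an unadjusted p under 0.05 there were 3, namely Lgals3, Fabp5 and Tyrobp, all higher in deficient tumours, where 15.1% of all tested genes met that mark (9.86% in the higher direction). A fit of the recovered fragments with limma-voom gave the same counts, 0 and 3. On the log2(FPKM + 1) scale 8 of the 9 had a positive fold change, with a median of 0.21, beside a median of 0.02 and 54.7% positive over all tested genes. For 4 of the 9 (Trem2, Tyrobp, Fabp5 and Lgals3) every deficient tumour lay above every wild-type tumour, a pattern seen in 11.8% of tested genes; the opposite pattern was seen in 8.31% of tested genes and in 0 of the 9, and groups did not overlap in either direction for 20.1%. The 14 general macrophage markers, a list apart from these genes, had 13 positive fold changes, 0 called and a median of 0.34. In whole tumours, more cells of a type and more RNA per cell cannot be told apart.

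The genes spanned a wide range of abundance, in the same order of mean level in both groups except for Lgals3 and Cd9. Spp1 was highest, with 1649 ± 135 FPKM in deficient and 1519 ± 182 FPKM in wild-type tumours (SD, n = 3 each), above 99.7% of tested genes. Cd63 and Tyrobp followed, with 417 ± 16.5 and 368 ± 62.0 FPKM in deficient tumours and 410.1 ± 27.2 and 297 ± 9.83 FPKM in wild-type tumours. Lgals3 stood next in deficient tumours (241 ± 22.7 FPKM) and Cd9 in wild-type tumours (201 ± 6.84 FPKM), and Cd9 in deficient tumours (200.02 ± 34.6 FPKM) overlapped the Lgals3 values of that group. Cd63 and Tyrobp overlapped in deficient tumours, as did Lipa and Fabp5, and Fabp5 and Trem2 overlapped in wild-type tumours, so these neighbours in the order did not differ beyond their spread there. Lipa, Fabp5, Trem2 and Gpnmb completed the order, and Gpnmb was the least abundant, at 19.0 ± 0.823 FPKM in deficient and 16.6 ± 4.33 FPKM in wild-type tumours.

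**Figure D1:**
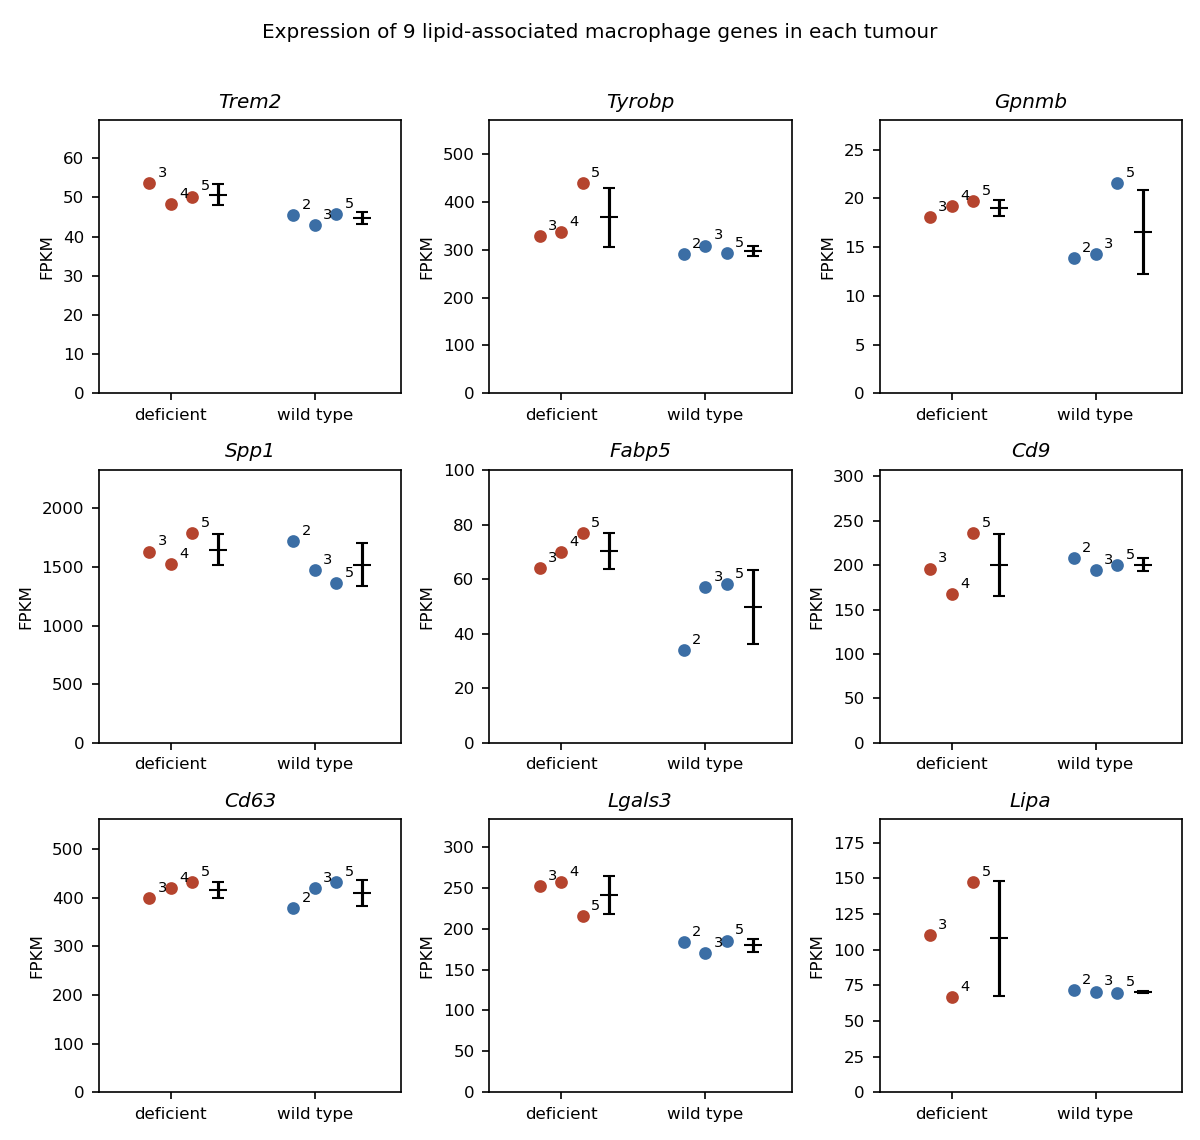
FPKM of each gene in each tumour (vertical axes from 0, scaled per gene), with deficient tumours in red on the left and wild-type tumours in blue on the right; digits are the tumour numbers, and black bars give the mean ± SD of 3 tumours. The groups do not overlap for Trem2, Tyrobp, Fabp5 and Lgals3. Lipa in deficient tumour 4, Gpnmb in wild-type tumour 5 and Spp1 in wild-type tumour 2 stand with the other group.

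RefSeq promoter windows (GRCm38.p6, 250 bases before and 50 after the start site) were on hand for 7 of the 9 genes, as 8 windows since Spp1 has 2 starts. Of these, 4 are printed because the results below turn on their genes: Trem2 and Lgals3, whose groups did not overlap, and Gpnmb and Lipa, each with 1 tumour that stood with the other group. Capitals mark matches, on either strand, to the letters of 3 motifs: GAGGAA (core of sites for PU.1, the macrophage lineage factor; TTCCTC on the other strand), TGACTCA (AP-1; TGAGTCA on the other strand) and CACGTG (the E-box core read by MITF and TFEB).
Trem2, chr17:48346151-48346450, plus strand: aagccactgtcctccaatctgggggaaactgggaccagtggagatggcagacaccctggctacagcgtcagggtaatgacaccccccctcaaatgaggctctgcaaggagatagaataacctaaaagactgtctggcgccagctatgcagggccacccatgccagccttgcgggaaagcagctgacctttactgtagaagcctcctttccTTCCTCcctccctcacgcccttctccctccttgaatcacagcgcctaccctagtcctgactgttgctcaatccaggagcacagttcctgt
Lgals3, chr14:47373610-47373909, plus strand: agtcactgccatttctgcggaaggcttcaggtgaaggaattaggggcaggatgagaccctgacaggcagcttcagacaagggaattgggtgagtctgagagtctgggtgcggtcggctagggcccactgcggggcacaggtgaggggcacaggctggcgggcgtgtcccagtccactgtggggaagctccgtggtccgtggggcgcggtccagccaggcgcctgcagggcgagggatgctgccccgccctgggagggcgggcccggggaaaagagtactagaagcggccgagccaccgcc
Gpnmb, chr6:49036268-49036567, plus strand: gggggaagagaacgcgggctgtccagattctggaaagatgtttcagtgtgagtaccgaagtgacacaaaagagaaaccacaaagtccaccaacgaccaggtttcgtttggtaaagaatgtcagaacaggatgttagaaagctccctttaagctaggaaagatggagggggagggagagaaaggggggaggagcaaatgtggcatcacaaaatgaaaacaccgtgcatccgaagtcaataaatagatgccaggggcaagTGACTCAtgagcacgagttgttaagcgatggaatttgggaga
Lipa, chr19:34527425-34527724, minus strand: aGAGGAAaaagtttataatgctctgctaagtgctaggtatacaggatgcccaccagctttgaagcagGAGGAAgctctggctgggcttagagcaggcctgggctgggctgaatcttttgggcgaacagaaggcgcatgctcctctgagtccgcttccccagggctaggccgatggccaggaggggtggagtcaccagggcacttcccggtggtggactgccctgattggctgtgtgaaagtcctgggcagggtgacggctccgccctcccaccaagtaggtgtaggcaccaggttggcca
The PU.1 core was in 4 of the 8 windows (Trem2, Lipa, Cd63 and 1 of the Spp1 windows), and in 28.3% of the 32851 windows of all genes. In Trem2 it began 40 bases before the start site, on the opposite strand, and in Lipa 183 bases before it and once more at the far end of the window. The AP-1 letters were in the Gpnmb window alone, from base 9 after the start site, and in 5.20% of all windows. CACGTG was in 0 of the 8 windows, and in 7.15% of all windows. The motifs do not overlap one another in these windows, and a match is a string of letters, not a bound site.

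Trem2, the lipid receptor, was slightly more abundant in deficient tumours, and Tyrobp, its adaptor, had a mean 1.24 times that of wild-type tumours with 1 tumour far above the rest; neither passed the test. Trem2 had 53.6, 48.3 and 50.2 FPKM in deficient 3, 4 and 5, against 45.5, 42.9 and 45.8 FPKM in wild type 2, 3 and 5. The groups did not overlap, although deficient 4 lay close above wild type 5, and the log2 fold change of 0.18 (SE 0.08) did not pass (adjusted p = 0.341). Its 95% interval, -0.004 to 0.36, leaves out a rise of more than 1.28-fold. Tyrobp had 328, 336 and 439 FPKM in deficient 3, 4 and 5, against 291, 309 and 292 FPKM in wild type 2, 3 and 5. Deficient 5 stood far above the other 5 tumours, and the fold change of 0.29 (SE 0.13, unadjusted p = 0.0496, adjusted p = 0.33) was 0.16 (adjusted p = 0.631) without it. The adaptor exceeded the receptor 7.27 ± 1.34 times in deficient and 6.66 ± 0.458 times in wild-type tumours (ratio of FPKM, SD, n = 3 each), and the groups overlapped in this ratio. TYROBP also serves many other receptors of myeloid and NK cells, so its level is not a measure of TREM2 alone.

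The wider TREM2 pathway likewise held no called gene. Of 15 tested genes for the complex, its ligands, the proteases that shed it and its downstream signalling, 12 had positive and 3 negative fold changes, 0 passed in either direction, and the median was 0.18. The smallest p among them besides the 2 members belonged to Ptpn6 (SHP-1, a phosphatase that opposes activation motif signalling; 0.84, SE 0.21, adjusted p = 0.122) and Hcst (DAP10, an adaptor that can pair with TYROBP; 0.60, SE 0.15, adjusted p = 0.137). Without deficient 4 Ptpn6 passed (adjusted p = 0.020). Card9, a signalling scaffold downstream of SYK, was at 0.26 (adjusted p = 0.304) and Adam10, a protease that sheds TREM2, at 0.27 (adjusted p = 0.385). Syk itself was at 0.08 (adjusted p = 0.788). Apoe, a lipoprotein ligand of TREM2 and among the most abundant transcripts of these tumours, had 2373 ± 533 FPKM in deficient and 2671 ± 153 FPKM in wild-type tumours (SD, n = 3 each; log2 fold change -0.20, adjusted p = 0.669).

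Among TREM family genes and chains of receptors that can signal through TYROBP, 1 passed the test. Whether its product signalled through TYROBP in these tumours was not tested. Klrd1 (CD94), a receptor chain of NK cells and some T cells, rose to 5.78 ± 0.646 FPKM in deficient tumours, against 1.17 ± 0.319 FPKM in wild-type tumours (SD, n = 3 each; log2 fold change 1.65, SE 0.14, adjusted p = 0.009). Of the 10 tested genes of this list, 9 had positive fold changes, 1 was called higher, 0 lower, and the median was 0.49. Sirpb1a, a myeloid receptor, was at 0.83 (adjusted p = 0.061), Clec5a, a myeloid lectin receptor, at 0.60 (adjusted p = 0.102) and Treml4, a TREM family member of macrophages and dendritic cells, at 0.54 (adjusted p = 0.162). Without deficient 4 Sirpb1a passed as well (adjusted p = 0.028), in the fit that called 270 of all tested genes higher, against 120 with all 6 tumours. Trem1, the activating family member of neutrophils and monocytes, was at -0.11 (adjusted p = 0.827). Klrd1 marks lymphocytes rather than lipid-associated macrophages, and 6 of the 7 tested T cell markers also had positive fold changes, with 2 called higher (Cd8a and Lck).

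Among the secreted or surface products, Lgals3 had the smallest p without passing the adjusted threshold, and the groups overlapped for Spp1 and Gpnmb. Lgals3, galectin-3, a lectin of macrophages and tumour cells, had 251.5, 256 and 215 FPKM in deficient 3, 4 and 5, against 183, 170.3 and 185 FPKM in wild type 2, 3 and 5. All deficient tumours lay clearly above all wild-type tumours. The log2 fold change was 0.42 (SE 0.10, 95% interval 0.19 to 0.64), with the smallest p of the 9 genes (unadjusted p = 0.0029, adjusted p = 0.108). Spp1, osteopontin, a secreted ligand of CD44 and integrins made by macrophages, tumour cells and osteoclasts, had 1631, 1523 and 1791 FPKM in deficient 3, 4 and 5, against 1720.4, 1472 and 1365 FPKM in wild type 2, 3 and 5. The groups overlapped through wild type 2, the second highest of all, while wild type 3 and 5 lay below every deficient tumour. The fold change was 0.12 (SE 0.13, adjusted p = 0.716, interval -0.19 to 0.43).

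Gpnmb, a transmembrane glycoprotein of lysosomes and the surface that MITF and TFE factors induce in lipid-laden macrophages, differed within the wild-type group more than between groups. It had 18.1, 19.2 and 19.7 FPKM in deficient 3, 4 and 5, against 13.9, 14.3 and 21.6 FPKM in wild type 2, 3 and 5. Wild type 5 was the highest of the 6 tumours and wild type 2 the lowest, so the groups overlapped (log2 fold change 0.21, SE 0.16, adjusted p = 0.578). Without wild type 5 it was 0.41 (adjusted p = 0.161). Wild type 5 also had the highest summed level of the 8 markers of osteoclasts, a cell type that also expresses Gpnmb. These osteoclast markers summed to 100.5, 424 and 128 FPKM in deficient 3, 4 and 5, against 276, 293 and 549 FPKM in wild type 2, 3 and 5. Acp5, Ctsk and Mmp9 were the most abundant. None was at 0 in every tumour, but Calcr reached at most 0.231 FPKM. Acp5 and Atp6v0d2 are also in the list of further lipid-associated macrophage genes. All 7 tested osteoclast markers had negative fold changes, 0 of them called. The 10 fibroblast markers were also highest in wild type 5, with sums of 2336, 3035 and 1856 FPKM in deficient 3, 4 and 5, against 2021, 4248 and 5785 FPKM in wild type 2, 3 and 5; 7 of the 10 had negative fold changes and 0 were called. The part of neither list in the Gpnmb values was tested. The 4 melanocyte markers in the table, another cell type that expresses Gpnmb, summed to at most 0.479 FPKM in any tumour.

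Around Lgals3 and Spp1, related genes showed no shared direction. Of 8 tested galectins and Lgals3bp, Lgals3 included, 5 had positive and 3 negative fold changes and 0 passed. Lgals3bp, the secreted binding partner of galectin-3, was at 0.61 (adjusted p = 0.165), Lgals9, which binds TIM-3, at 0.40 (adjusted p = 0.215), Lgals2 at -0.71 (adjusted p = 0.263) and Lgals4 at -0.20 (adjusted p = 0.436). Lgals1, the most abundant galectin here, was at 0.16 (adjusted p = 0.614). Of 9 tested genes for the osteopontin family and its receptors, Spp1 included, 5 had positive and 4 negative fold changes. Of them 0 passed, and the median was 0.0003. Cd44, a receptor for osteopontin and hyaluronan, was at 0.20 (adjusted p = 0.450), and the integrin chains Itga4, Itgb5 and Itgb3 were at 0.35 (adjusted p = 0.309), -0.25 (adjusted p = 0.312) and 0.15 (adjusted p = 0.599).

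The lipid-handling members had the largest fold changes of the 9, and each had 1 tumour apart from its group; neither passed the test. Fabp5, a cytosolic carrier of fatty acids, had 64.1, 70.003 and 77.1 FPKM in deficient 3, 4 and 5, against 33.98, 57.1 and 58.2 FPKM in wild type 2, 3 and 5. The groups did not overlap, and wild type 2 was far below the others. The log2 fold change of 0.53 (SE 0.20, adjusted p = 0.278) was 0.28 (adjusted p = 0.235) without wild type 2. Lipa, lysosomal acid lipase, which frees cholesterol and fatty acids from engulfed lipid, had 110.04, 66.6 and 147 FPKM in deficient 3, 4 and 5, against 71.4, 70.5 and 69.8 FPKM in wild type 2, 3 and 5. Deficient 3 and 5 lay above all wild-type tumours and deficient 4 below all of them, and the coefficient of variation was 37.3% in deficient and 1.12% in wild-type tumours. The log2 fold change was 0.53 (SE 0.25, adjusted p = 0.370); without deficient 4 it was 0.84 and passed (adjusted p = 0.027).

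The 2 deficient tumours high in Lipa were also those high in fat-cell and macrophage transcripts. The 17 adipocyte markers in the table summed to 403, 238 and 749 FPKM in deficient 3, 4 and 5, against 166, 123 and 252 FPKM in wild type 2, 3 and 5. Of the 14 tested adipocyte markers 13 had positive fold changes, with a median of 1.66 and 0 called, and none of the 17 is at 0 in every tumour. Adipoq, the hormone that defines fat cells, had 15.8, 5.57 and 26.9 FPKM in deficient 3, 4 and 5, against 3.91, 0.313 and 10.09 FPKM in wild type 2, 3 and 5. The 14 general macrophage markers summed to 6249, 4250.3 and 7246 FPKM in deficient 3, 4 and 5, against 4631, 4169 and 4256 FPKM in wild type 2, 3 and 5. By this sum deficient 4 lay among the wild-type tumours, while by the mean log2 level of the list (6.51 in deficient 4) it lay above all of them, at 6.37 to 6.48. The part of either list in the Lipa and Fabp5 values was not tested. Fabp4, the fatty acid carrier shared by adipocytes and macrophages, had 155, 91.7 and 286 FPKM in deficient 3, 4 and 5, against 74.2, 50.01 and 119 FPKM in wild type 2, 3 and 5 (log2 fold change 1.06, SE 0.43, adjusted p = 0.308), and the groups overlapped. Fabp3 was the only other family member tested (-0.25, adjusted p = 0.674), and the other 3 members in the table were too low to test.

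**Figure D2:**
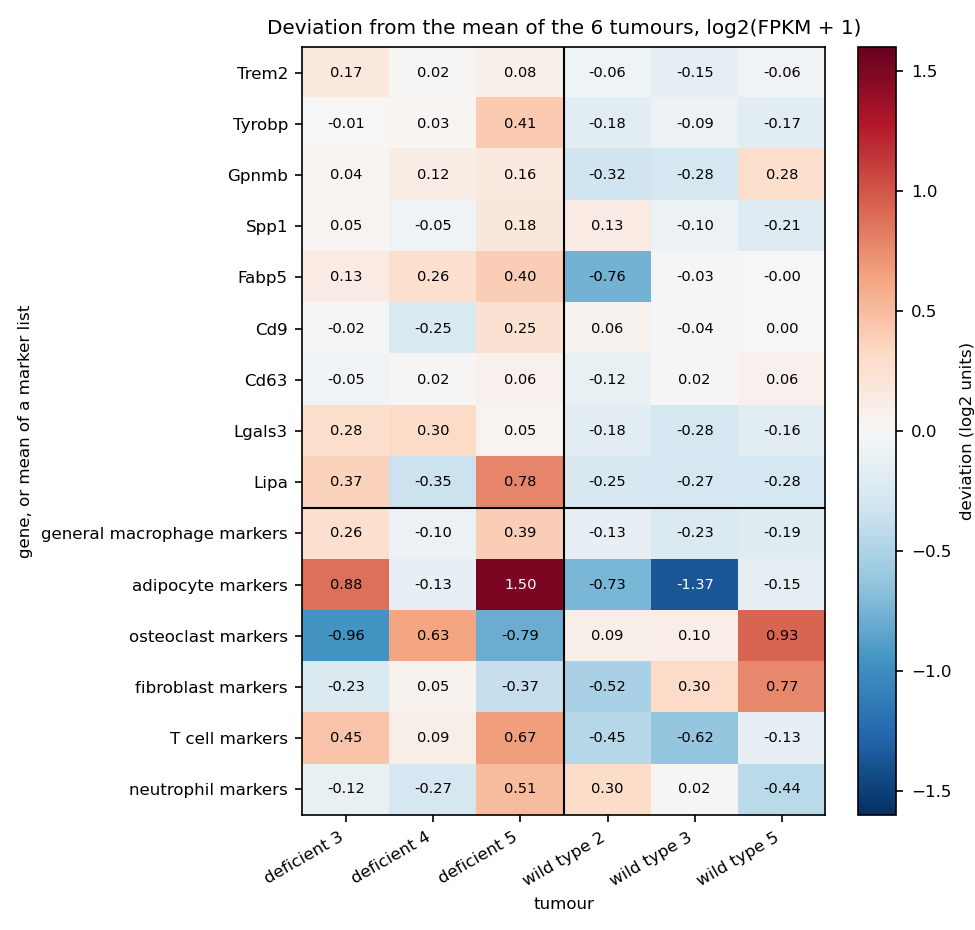
Deviation of each gene, and of the mean of 6 marker lists, from its own mean over the 6 tumours, in log2(FPKM + 1) units; columns are tumours, deficient left of the vertical line and wild type right of it. Lipa was highest in deficient 3 and 5 (0.37 and 0.78) and lowest in deficient 4 (-0.35); adipocyte markers were at 0.88, 1.5 and -0.13 in these tumours, and osteoclast (0.93) and fibroblast markers (0.77) were highest in wild type 5, as was Gpnmb (0.28).

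No lysosomal gene passed the test. Of 25 tested genes for lysosomal lipid handling and its MiT/TFE factors, Lipa included, 21 had positive and 4 negative fold changes, 0 passed, and the median was 0.09. Gm2a, the activator of ganglioside breakdown, was at 0.36 (adjusted p = 0.163), and Psap, the precursor of saposins that help degrade sphingolipids, at 0.33 (adjusted p = 0.303). Npc1 and Npc2, which export lysosomal cholesterol, were at -0.03 (adjusted p = 0.951) and 0.15 (adjusted p = 0.522). Tfec, a macrophage member of the MiT/TFE factors, had 1.91 ± 0.165 FPKM in deficient and 1.14 ± 0.327 FPKM in wild-type tumours (SD, n = 3 each; 0.45, adjusted p = 0.188), and Mitf was at 0.06 (adjusted p = 0.884).

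The tetraspanins Cd9 and Cd63, membrane organisers that mark lipid-associated macrophages, endosomes and extracellular vesicles, had the fold changes nearest to 0 of the 9 genes. Cd9 had 196, 168 and 236 FPKM in deficient 3, 4 and 5, against 208, 194 and 199.7 FPKM in wild type 2, 3 and 5. The deficient tumours held both the highest and the lowest value, with the wild-type tumours between them (log2 fold change -0.02, SE 0.13, adjusted p = 0.965). Cd63 had 399, 419.8 and 432 FPKM in deficient 3, 4 and 5, against 379.6, 419.4 and 432 FPKM in wild type 2, 3 and 5 (log2 fold change 0.02, SE 0.09, adjusted p = 0.929). The groups overlapped almost fully. The 95% intervals span -0.32 to 0.28 for Cd9 and -0.19 to 0.24 for Cd63, or 0.803 to 1.21 times the wild-type level for Cd9 and 0.877 to 1.18 times for Cd63.

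Of 24 tested tetraspanins 13 had positive and 11 negative fold changes, 0 passed, and the median was 0.01. The smallest p belonged to genes of blood cells, namely Tspan32 (0.48, adjusted p = 0.171), Cd53 (0.43, adjusted p = 0.221) and Cd37 (0.48, adjusted p = 0.252), and to Tspan14, which helps ADAM10 mature (0.27, adjusted p = 0.297). For each of these 4 the deficient tumours lay above the wild-type tumours, as in 5 of the 24 against 11.8% of all tested genes. The opposite pattern was seen in 1 of the 24, against 8.31% of all tested genes. Cd9 and Cd63 are widely expressed outside macrophages, and the tumour cells' share of their RNA was not tested.

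**Figure D3:**
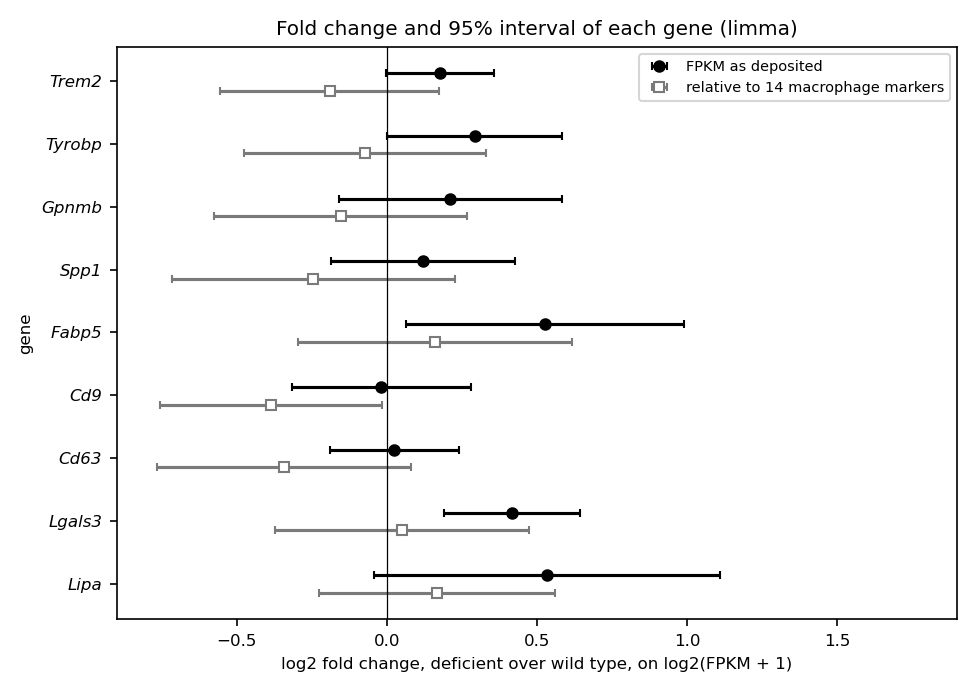
Log2 fold change of deficient over wild-type tumours with its 95% interval (limma), for FPKM as deposited (filled circles) and after each tumour was centred on the mean log2 level of 14 macrophage markers (open squares). As deposited, 8 of 9 genes lie right of 0; relative to macrophage markers 6 of 9 lie left of it, and 0 of 9 passed in either.

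Relative to general macrophage markers, 6 of the 9 genes had negative fold changes and 0 passed in either direction. The mean log2 level of the 14 markers was 6.86, 6.51 and 6.99 in deficient 3, 4 and 5, against 6.48, 6.37 and 6.42 in wild type 2, 3 and 5, so deficient 4 stood nearest to the wild-type tumours. With every tumour centred on that mean, the median fold change of all tested genes moved to -0.35, and those of the 9 genes ran from -0.38 (Cd9) to 0.17 (Lipa), with a median of -0.15. Trem2 was at -0.19 (SE 0.17, adjusted p = 0.360) and Tyrobp at -0.07 (SE 0.19, adjusted p = 0.741). Lgals3 was at 0.05 (adjusted p = 0.826), Fabp5 at 0.16 (adjusted p = 0.525), Gpnmb at -0.15 (adjusted p = 0.513) and Spp1 at -0.24 (adjusted p = 0.360). Cd9 had an unadjusted limma p of 0.043 and an adjusted p of 0.128, and Cd63 was at -0.34 (adjusted p = 0.192). In this setting 4502 of the 12257 tested genes had an unadjusted p under 0.05. Centring moves every fold change and their median by the same amount. The place of the 9 genes against that median, 8 above and Cd9 slightly below, is therefore the same as with FPKM as deposited.

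Further genes of lipid-associated and damage-associated macrophages held some with larger fold changes than any of the 9, none of which passed the test. Of 30 tested, 21 had positive and 9 negative fold changes, 0 passed in either direction, the median was 0.23, and 14 had an unadjusted p under 0.05, all positive. That mark was met in the positive direction by 9.86% of all tested genes and by 9 of the 14 general macrophage markers. Cd36, a scavenger receptor for oxidised lipoproteins and fatty acids, had 16.3, 14.9 and 23.2 FPKM in deficient 3, 4 and 5, against 3.08, 1.95 and 8.71 FPKM in wild type 2, 3 and 5. Every deficient tumour was higher (log2 fold change 1.94, SE 0.40, adjusted p = 0.078), and without wild type 5 it was 2.44 and passed (adjusted p = 0.023). Mmp12, macrophage elastase, had 51.4, 24.2 and 38.2 FPKM in deficient 3, 4 and 5, against 8.56, 9.17 and 18.8 FPKM in wild type 2, 3 and 5 (1.58, SE 0.34, adjusted p = 0.084). Without deficient 4 it passed as well (1.87, adjusted p = 0.037).

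Clec7a (dectin-1, a receptor for fungal glucans) was at 1.24 (SE 0.29, adjusted p = 0.109). It was at 1.61 without deficient 4, where it passed (adjusted p = 0.008) in the fit with 270 genes called higher. Relative to macrophage markers Cd36 (1.58, adjusted p = 0.0052), Mmp12 (1.22, adjusted p = 0.0099) and Clec7a (0.88, adjusted p = 0.026) passed as higher in deficient tumours. In that setting 101 of all 12257 tested genes were called higher and 277 lower. Itgax (CD11c, an integrin of dendritic cells and of these macrophages) was at 0.73 (SE 0.17, adjusted p = 0.105). Lpl, lipoprotein lipase, which both macrophages and fat cells make, had 23.4, 6.81 and 30.5 FPKM in deficient 3, 4 and 5, against 2.48, 2.48 and 7.05 FPKM in wild type 2, 3 and 5, and followed the order of the adipocyte markers in the deficient tumours. Plin2, the lipid droplet coat protein of many cells, was at 0.38 (adjusted p = 0.198), and its groups did not overlap. The cholesterol exporters Abca1 and Abcg1 were at -0.21 (adjusted p = 0.586) and 0.21 (adjusted p = 0.640). Cd36 and Lpl are also genes of fat cells, and Lpl and Fabp4 are in the adipocyte list too.

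**Figure D4:**
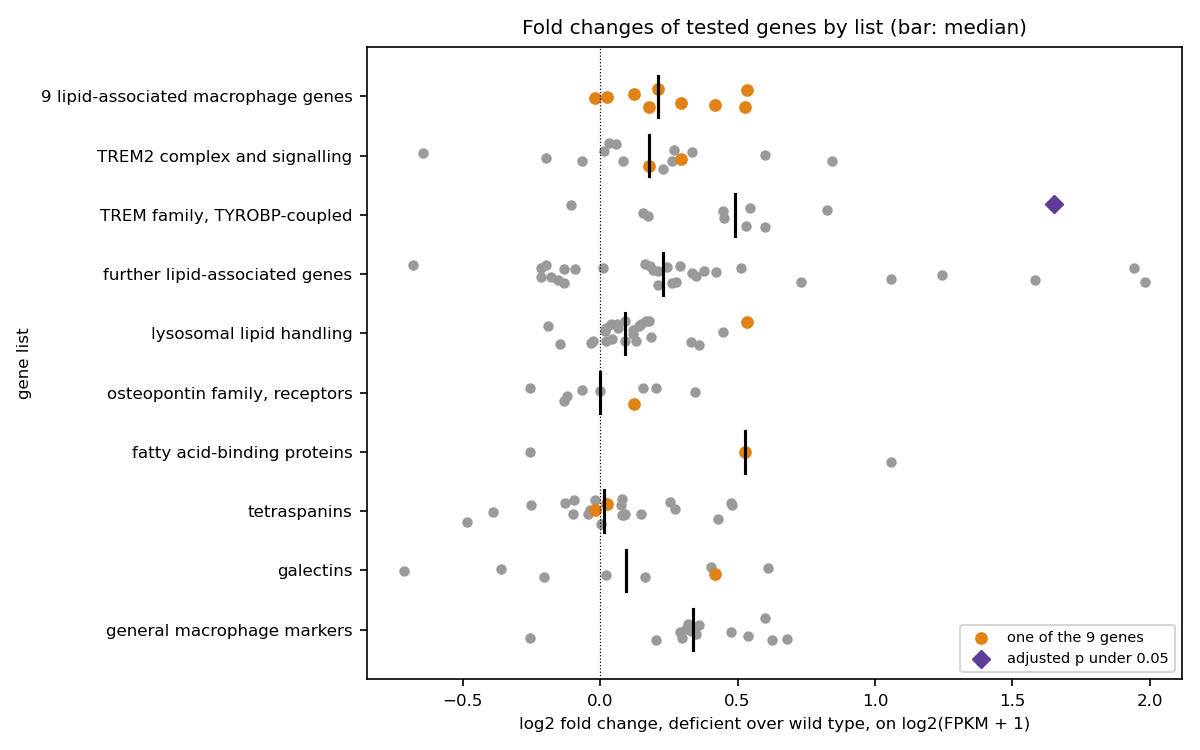
Log2 fold changes (horizontal axis, deficient over wild type) of the tested genes in each list, 1 point per gene; orange points are the 9 genes, the purple diamond is Klrd1, the 1 gene past an adjusted p of 0.05 in these lists, and black bars are medians. The 9 genes have a median of 0.21, further lipid-associated genes 0.23 and general macrophage markers 0.34.

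The highest and the lowest tumour differed among the 9 genes. Deficient 5 held the highest value of 6 genes (Tyrobp, Spp1, Fabp5, Cd9, Cd63 and Lipa), deficient 3 that of Trem2, deficient 4 that of Lgals3 and wild type 5 that of Gpnmb. Wild type 2 held the lowest value of 4 and deficient 4 that of 2 (Cd9 and Lipa). Likeness was measured as the root mean square distance between log2 profiles centred over the 6 tumours. By it the genes nearest to Trem2 were Tor2a (0.02), Osbpl1a (0.02) and Arfrp1 (0.03), beside 0.12 for Spp1 and Cd63, the closest of the other 8 genes, and 0.17 for Tyrobp. Nearest to Gpnmb were Foxp3 (0.04), Rasa4 (0.06) and Gimap5 (0.07), and nearest to Spp1 Tada3 (0.02), Hmox2 (0.03) and Pdzd11 (0.03). With 6 tumours and 12257 genes, close profiles occur for many genes, and these are a description only.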

How the data were processed

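RNA of 6 whole tumours was sequenced as 150 bp paired-end reads, per the labels' protocols. HISAT2, HTSeq and R 3.2.0 are named without roles, per the submitters' processing notes; the build was not given in the sources used here, nor the annotation. The deposited table gives 1 value per gene and library, taken to be FPKM made by the authors, since no header names the unit. In 16541 of 16543 genes above 0 in at least 2 libraries (99.99%), values were whole multiples of a step per gene (tolerance 0.001), which gave fragments per gene.

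Genes with a mean FPKM of at least 0.5 were tested (12257) on log2(FPKM + 1) by limma-trend (limma 3.58.1, R 4.3.3), deficient against wild type with no block, and Benjamini-Hochberg adjustment. Fold changes on this scale understate changes of low genes. The fit was tested on simulated data. The 9 genes, the 8 gene lists, the 9 marker lists and the tests were chosen with earlier results of these data known. Named were the 9 genes, Anxa1, up to 4 genes with the smallest p in each gene list (or up to 6 called ones), and the nearest profiles, except 1 gene that is not reported here; others named for their role (Apoe, Syk, Trem1, Lgals1, Npc1, Npc2, Mitf, Lpl, Plin2, Abca1, Abcg1, Ddx3y and Adipoq) were chosen after their values were seen. For 4 of the marker lists the median log2 fold change was 0.27 for tumour epithelial, -0.55 for fibroblast, -0.08 for neutrophil and 0.31 for dendritic cell markers, with 0 genes called in each. Alternatives were other pseudocounts, filters, scalings, a replicate block, no variance trend and leaving out each library; limma-voom on the recovered fragments was added after the data were seen.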

Additional observations from a re-analysis of the deposited data

How the results depend on the processing

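The number of called genes among all tested (120 higher and 28 lower) moved with the processing. It was 10 and 8 with no filter on low values, 74 higher with quantile normalization, and 67 higher with limma-voom on recovered fragments. Centred on macrophage markers it was 101 higher and 277 lower. With 1 tumour left out it ran from 7 to 270 higher and 3 to 66 lower. The 270 and 66 came without deficient 4. Of the 9 genes, 0 were called in either direction, and 0 to 1 higher with 1 tumour left out. At an unadjusted limma p under 0.05 there were 3, against 1 when centred on macrophage markers and 1 to 4 with 1 tumour left out. That mark was met by 1852 of the 12257 tested genes, against 4502 when centred and 1100 to 2242 with 1 tumour left out. The 1 call was Lipa, which ran from 0.28 to 0.84 with 1 tumour left out. Lgals3 and Fabp5 stayed positive and uncalled under all 17 alternatives.

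Centring on macrophage markers shifts all genes by its construction and turned the sign of Trem2 (-0.19), Tyrobp (-0.074), Gpnmb (-0.15), Spp1 (-0.24), Cd63 (-0.34) and the median of the 9 genes (-0.15), and of Adam10 (-0.10), Card9 (-0.11), Cd44 (-0.16), Gm2a (-0.0078), Itga4 (-0.020), Itgb3 (-0.21), Psap (-0.036) and Tspan14 (-0.093). Cd63, near 0, also turned with upper quartile (-0.0072) and median-ratio scaling (-0.0015) and with quantile normalization (-0.041), and ran from -0.030 to 0.062 with 1 tumour left out; Cd9 ran from -0.15 to 0.10 and Fabp3 from -0.51 to 0.012. The cause was not tested.

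Tumour numbers 3 and 5 occur in both groups, and the labels do not say whether same-numbered tumours share more than the number. Their deviations from the group means correlated across genes at -0.09 for number 3 and -0.01 for number 5. Differently numbered tumours ran from -0.21 to 0.22. With so few tumours these correlations cannot show whether a litter, cage or batch was shared. With the replicate block, which leaves 1 residual degree of freedom, 633 genes were called higher and 354 lower and 1 of the 9, Lipa (0.85); Cd9 turned to 0.13 and Cd63 to -0.035. Counting error was at most 2.80% for any of the 9 genes in any tumour.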
